A study of Mus musculus with 2 samples.

Results

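Zfp900 to Zfp999 are mouse genes that encode zinc finger proteins of the tandem C2H2 type, and they were taken as the genes of the count table whose symbol is Zfp followed by a number in that range. There were 57 of them among 17134 genes. RNA was sequenced from tuft cells, the chemosensory cells of the gut epithelium, which had been sorted from small intestine of naïve mice by EpCAM and Siglec-F. There was 1 Spib_KO library, with the genotype Spibfl/flVillin-cre, and 1 WT library, with the genotype Spib+Villin-cre. Both genotypes carry Villin-cre, a transgene that drives Cre recombinase from a promoter active in epithelial cells of the intestine, and the number of mice behind a library is not given in the labels. The comparison asks how transcript levels in these cells differ when Spib, which encodes an ETS family transcription factor, is deleted in the epithelium. With 1 library per genotype no difference has a replicate check, and every interval below covers counting error only.

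Most genes of this numbering encode KRAB zinc finger proteins. In these proteins the row of zinc fingers binds DNA, often within transposable elements, and the KRAB domain recruits the corepressor KAP1, the product of Trim28, which brings the histone methyltransferase SETDB1 and leads to silent chromatin. The genes lie in clusters that arose by repeated duplication, so that neighbours can be nearly identical in sequence. In mouse embryonic stem cells, deletion of such clusters, among them a cluster on chromosome 2 and a cluster on chromosome 4, is known to raise transcription of some endogenous retroviruses.

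The largest differences among measured members lie in a single cluster on chromosome 2, which holds Zfp970, Zfp971 and Zfp966 to Zfp968. The following coding sequences show how alike these genes are and which bases separate Zfp970, Zfp971 and the group of Zfp966 to Zfp968. They are 100 coding bases of GENCODE M21 transcripts, bases 914 to 1013 in Zfp970 and Zfp971 and bases 971 to 1070 in Zfp967, and they are the aligned stretch with the most variable positions. Capitals mark the 26 positions that vary among Zfp970, Zfp971, Zfp966, Zfp967 and Zfp968.
Zfp970: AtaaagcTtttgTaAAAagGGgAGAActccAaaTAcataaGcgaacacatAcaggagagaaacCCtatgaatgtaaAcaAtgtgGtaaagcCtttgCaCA
Zfp971: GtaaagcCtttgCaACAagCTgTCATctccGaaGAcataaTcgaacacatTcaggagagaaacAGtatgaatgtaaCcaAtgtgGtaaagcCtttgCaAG
Zfp967: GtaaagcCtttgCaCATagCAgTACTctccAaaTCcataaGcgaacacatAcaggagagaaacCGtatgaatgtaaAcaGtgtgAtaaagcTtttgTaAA
Zfp966 and Zfp968 have the same bases as Zfp967 in this stretch and in the whole of their coding sequences, which are 1455 bases long in all 3 genes. Over their whole coding sequences, Zfp970 and Zfp967 differ at 66 of 1398 aligned bases, an identity of 95.3%, and Zfp970 and Zfp971 differ at 125 of 1410 aligned bases, an identity of 91.1%. Zfp965 and Zfp973 are also identical to each other over their 954 coding bases.

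The same genes share the sequence in front of their start sites. The 250 bases upstream of the RefSeq start (GRCm38.p6) are shown for Zfp970 at chr2:177464492-177464741 on the plus strand, Zfp971 at chr2:178023034-178023283 on the plus strand, Zfp967 at chr2:176520754-176521003 on the plus strand and Zfp972 at chr2:177925651-177925900 on the minus strand. Zfp972 is included because it was the member of the cluster with more reads in the Spib_KO library. Capitals mark bases that differ from Zfp970 in the aligned part.
Zfp970: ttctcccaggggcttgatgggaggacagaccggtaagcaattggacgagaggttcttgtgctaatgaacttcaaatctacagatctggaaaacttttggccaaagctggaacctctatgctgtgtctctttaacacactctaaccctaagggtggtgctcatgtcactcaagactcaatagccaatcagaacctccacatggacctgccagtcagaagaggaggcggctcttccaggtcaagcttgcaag
Zfp971: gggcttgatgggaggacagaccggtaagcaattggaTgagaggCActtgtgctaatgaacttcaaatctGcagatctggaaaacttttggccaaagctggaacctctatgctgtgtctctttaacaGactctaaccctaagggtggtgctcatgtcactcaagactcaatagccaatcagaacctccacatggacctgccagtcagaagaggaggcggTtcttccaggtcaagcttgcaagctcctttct
Zfp967: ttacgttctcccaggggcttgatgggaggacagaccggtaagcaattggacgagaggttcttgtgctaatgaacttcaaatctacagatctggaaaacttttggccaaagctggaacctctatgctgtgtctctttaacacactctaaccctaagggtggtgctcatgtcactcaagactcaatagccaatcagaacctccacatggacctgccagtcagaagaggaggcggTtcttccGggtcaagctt
Zfp972: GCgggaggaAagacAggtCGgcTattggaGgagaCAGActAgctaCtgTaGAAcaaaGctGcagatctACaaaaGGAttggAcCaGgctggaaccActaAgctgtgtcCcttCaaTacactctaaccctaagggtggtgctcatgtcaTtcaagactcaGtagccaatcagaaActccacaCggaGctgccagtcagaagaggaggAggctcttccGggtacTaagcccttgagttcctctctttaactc
Relative to Zfp970, 2 of 245 aligned bases differ in Zfp967, 6 of 241 in Zfp971 and 41 of 230 in Zfp972. The upstream sequences of the other 5 members of the cluster were between 94.8% (Zfp931) and 100% (Zfp968) identical to that of Zfp970.

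The libraries held 17228665 reads in Spib_KO and 17925421 in WT, and values are given as read counts and as CPM, reads scaled to a common library size. Spib had 48 reads in Spib_KO and 6266 in WT, a log2 ratio, Spib_KO over WT, of -6.95 (95% interval -7.40 to -6.55). Siglecf and Epcam, which define the sort, had log2 ratios of 0.14 and -0.06. All 20 tuft cell markers had reads in both libraries, with a median log2 ratio of 0.10 and a summed level of 20586 CPM in Spib_KO and 21443 CPM in WT, and by the rule given next only Plcb2 was called, as lower.

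Of the 57 genes, 36 were measured, which means a CPM of at least 5 and at least 30 reads in at least 1 library. A gene was called higher or lower when the bound nearest 0 of the 95% interval of its log2 ratio was at least 1 away from 0, a 2-fold difference. No member was called higher, against 2.33% of all 10707 measured genes. By the same rule 3 members were called lower, which is 8.33% of the 36, against 2.18% of all measured genes. All 3, Zfp967, Zfp970 and Zfp973, lie in the chromosome 2 cluster. The median log2 ratio over the 36 measured members was 0.10, against 0.01 over all measured genes. The members were more spread out, with 44.4% of the measured ones beyond a 1.5-fold difference in either direction, against 20.5% of all measured genes. Beyond a 2-fold difference, the shares were 25% of the members and 7.88% of all measured genes. The other measured Zfp genes (Zfp1 to Zfp899) lay between, with 32% beyond 1.5-fold and 11% beyond 2-fold. Split by number, these shares varied widely. They were lowest for the 15 measured genes Zfp100 to Zfp199, at 0% and 0%. They were highest for the 28 measured genes Zfp700 to Zfp799, at 46.4% and 25%, about those of the members. A gene that is measured only through its higher library has to differ. With the filter set on the mean of both libraries, 34 members were measured, none was called higher, against 1.72% of all genes, and 2 were called lower, against 1.73%. With no filter 1 member was called higher, against 3.48%, and 3 were called lower, against 4.18%. By the ratio alone, without its interval, 3 of the 36 were at least 2-fold higher, against 3.97%, and 6 at least 2-fold lower, against 3.91%.

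**Figure D1:**
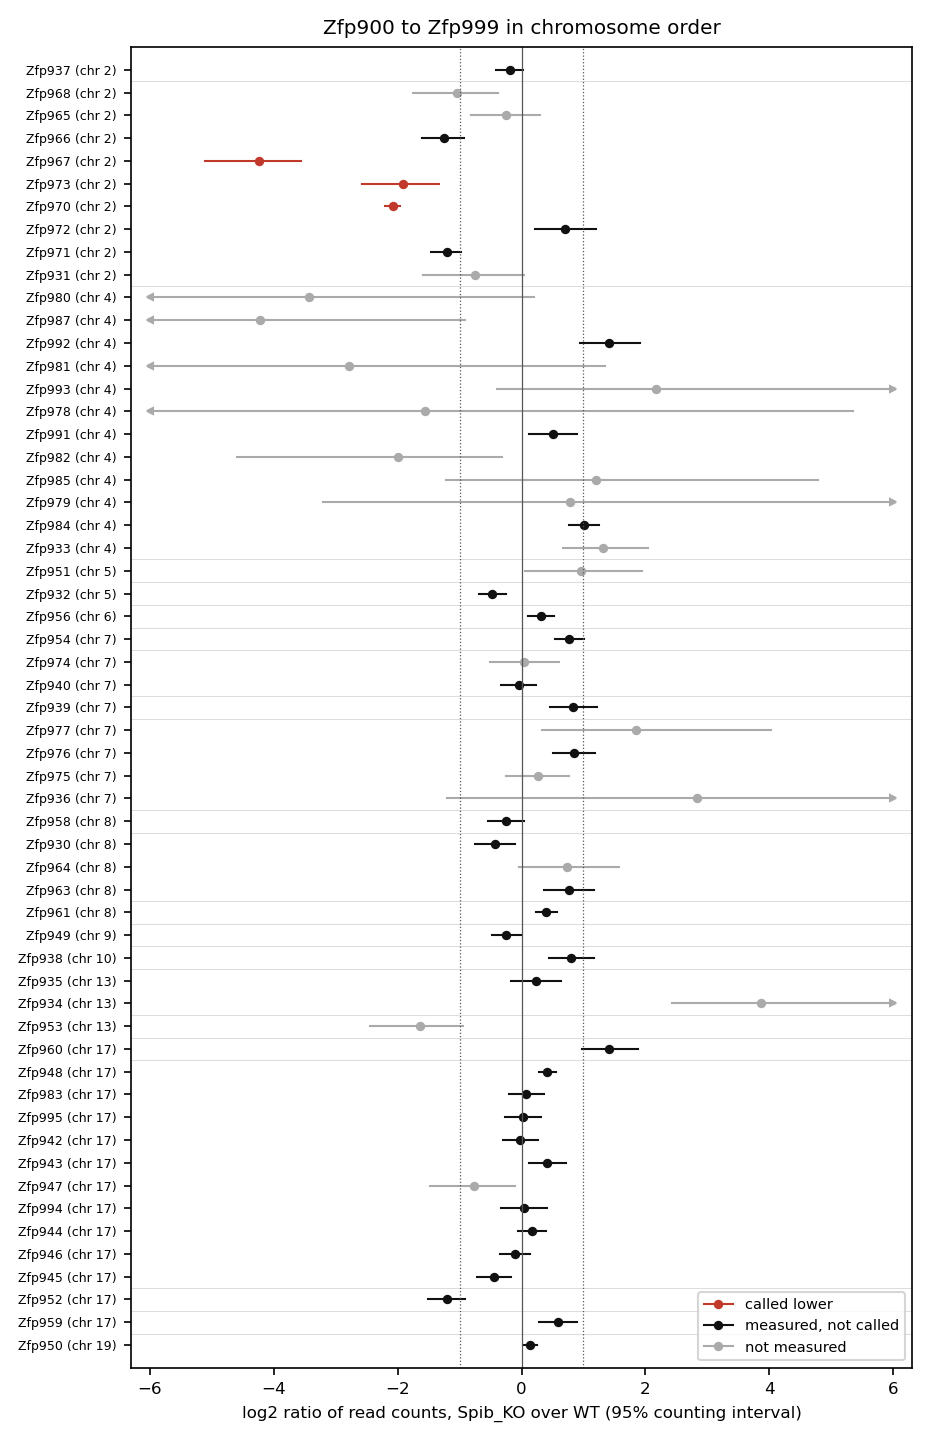
Log2 ratio of read counts, Spib_KO over WT, for each member in chromosome order, with lines for the 95% counting interval, arrows for intervals that run off the axis, and colours for called lower (red), measured but not called (black) and not measured (grey). The 3 members called lower sit together on chromosome 2, and the chromosome 17 cluster lies close to 0.

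In the chromosome 2 cluster, 3 of the 6 measured members were called lower in the Spib_KO library, against 2.18% of all measured genes. Zfp967, Zfp973 and Zfp972 reached the minimum of 5 CPM only in their higher library. The means of Zfp973 and Zfp972 over both libraries, 4.07 CPM and 4.32 CPM, fall below it. The summed reads of the 9 members of the cluster were lower in the Spib_KO library too. The log2 ratio was below 0 for 5 of the 6 measured members, which share sequence and are not separate observations. Among all 10707 measured genes, 5224 were below 0. With no filter, the log2 ratio was below 0 for 8 of the 9, and for 8720 of 17113 genes. Among the 8, Zfp965, Zfp968 and Zfp931 were not measured, and the intervals of Zfp965 and Zfp931 include 0. The cluster spans 2.71 Mb (chr2:175372034-178078425, GRCm38.p6) and holds, in order, Zfp968, Zfp965, Zfp966, Zfp967, Zfp973, Zfp970, Zfp972, Zfp971 and Zfp931. Its members together had 1220 reads in the Spib_KO library, or 71.1 CPM (95% Poisson interval 67.2 to 75.2), against 4408 reads in the WT library, or 245 CPM (238 to 252). The summed log2 ratio was -1.78 (95% interval -1.88 to -1.69), a 3.44-fold lower level. This sum does not depend on how reads were divided among the members, though it does on their division between members and other genes of the cluster. Some marker lists of other epithelial and immune cells were lower in sum in the same library. Paneth cell markers had 978 CPM in Spib_KO and 2486 CPM in WT. Those of T cells and intraepithelial lymphocytes had 15.2 CPM in Spib_KO and 59.3 CPM in WT. Higher in sum were the lists of enterocytes (18174 CPM in Spib_KO and 16268 CPM in WT) and enteroendocrine cells (574 CPM in Spib_KO and 540 CPM in WT). The part of these cells in the difference of the cluster was not tested. The cluster made up 11.5% (95% exact binomial interval 10.9 to 12.1) of all reads of the 57 genes in the Spib_KO library and 33.9% (33.1 to 34.7) in the WT library.

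Zfp970, a gene whose product has the KRAB pattern and 14 zinc fingers by sequence, was the most abundant member in the WT library. It had 673 reads (39.2 CPM) in the Spib_KO library and 2984 reads (166 CPM) in the WT library. Its log2 ratio was -2.08 (95% interval -2.20 to -1.96), the narrowest interval among the called members. Per transcript length its level was 11.03 TPM in Spib_KO and 47.1 TPM in WT, so its decrease was the same size in both units, with a log2 ratio of TPM of -2.09. Zfp970 (gene at chr2:177464742-177479194, plus strand) shares 17.4% of its 100-base transcript stretches with other genes, most often with the predicted gene Gm14288. Without Zfp970 the other 8 members of the cluster held 547 reads in Spib_KO and 1424 in WT, with a summed log2 ratio of -1.31 (-1.46 to -1.17).

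Zfp967, Zfp966 and Zfp968 cannot be told apart by their coding sequence, and all 100-base stretches of Zfp967 are found in Zfp966. Zfp967 (chr2:176521004-176533821) was given 16 reads (0.932 CPM) in the Spib_KO library and 326 reads (18.1 CPM) in the WT library. Its log2 ratio of -4.24 (-5.10 to -3.56) was the lowest of all 36 measured members. Zfp966 had 105 reads in Spib_KO and 264 in WT, and Zfp968 had 28 in Spib_KO and 61 in WT. Because the division of reads among these genes is uncertain, their sum is the firmer value. The 3 genes together had 149 reads (8.68 CPM) in Spib_KO and 651 reads (36.2 CPM) in WT, with a log2 ratio of -2.06 (-2.33 to -1.80), a 4.16-fold lower level that lies close to that of Zfp970.

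Zfp973 and Zfp965 form the other identical pair, with 6 zinc fingers each. Zfp973 had 29 reads (1.69 CPM) in Spib_KO and 116 reads (6.45 CPM) in WT, a log2 ratio of -1.91 (-2.57 to -1.33). Zfp965 had 51 reads in Spib_KO and 64 in WT and was not measured. Their summed reads, 80 in Spib_KO and 180 in WT, gave a log2 ratio of -1.10 (-1.50 to -0.71), which is not called. Whether Zfp973 alone was lower, or reads were divided differently between the pair, cannot be told apart.

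Zfp971, with 12 zinc fingers, had 204 reads (11.9 CPM) in Spib_KO and 495 reads (27.5 CPM) in WT. Its log2 ratio was -1.21 (-1.45 to -0.97), just outside the call threshold. Zfp931, which shares 6.91% of its 100-base stretches with other genes, had 22 reads in Spib_KO and 39 in WT and was not measured. Zfp972, in which no zinc finger was found in the annotated coding sequence, was the exception in the cluster. It had 92 reads (5.36 CPM) in Spib_KO and 59 reads (3.28 CPM) in WT, a log2 ratio of 0.70 (0.22 to 1.21). It overlaps the predicted gene Gm14327. Zfp972 was also the 1 member of the cluster whose deposited counts were whole in both libraries, while those of the other 8 were not. Leaving out both Zfp970 and Zfp967, the remaining 7 members had 531 reads in Spib_KO and 1098 in WT, with a log2 ratio of -0.98 (-1.13 to -0.83), a 1.97-fold lower level that is no longer called.

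**Figure D2:**
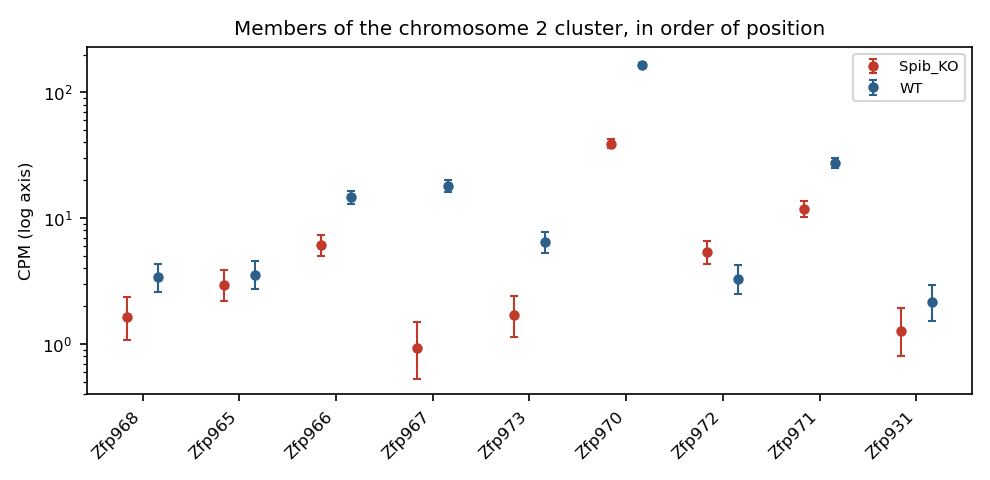
Normalised read count (CPM, log axis) of the 9 members of the chromosome 2 cluster in order of position, Spib_KO in red and WT in blue, with 95% Poisson intervals. Zfp970 had 39.2 CPM in Spib_KO and 166 CPM in WT, and Zfp972 is the member with the higher value in Spib_KO.

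Other genes between the members of this cluster went both ways, with a lower sum in the Spib_KO library. The table holds 17 such genes that are no members, 15 were measured, and 10 of these had a log2 ratio below 0. Of the 15, 4 were called lower, Gm14288, Gm6710, Gm2004 and Gm14295, against 2.18% of all measured genes, 1 was called higher, Gm14296, against 2.33%, and 10 were not called. Gm6710 and Gm14296 were measured only through their higher library. Their means over both libraries, 4.45 CPM and 2.88 CPM, fall below the minimum of 5. Gm14288, the gene that shares most stretches with Zfp970, had 133 reads in Spib_KO and 643 in WT. Gm14296 had 99 reads in Spib_KO and 0 in WT, and 2210418O10Rik had 99 in Spib_KO and 228 in WT. The deposited counts of these 2 genes are equal in Spib_KO, at 98.59 reads each, so the call of Gm14296 cannot be told apart from a different division of reads between them. The 17 genes together had 2025 reads in Spib_KO and 3794 in WT, a log2 ratio of -0.84 (-0.92 to -0.76). Every one of the 15 measured genes had a read count that was not whole in at least 1 library, as happens where reads are divided between genes.

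Outside the chromosome 2 cluster, 30 members were measured, and none was called in either direction. Their median log2 ratio was 0.20. The 48 members outside the cluster together had 9391 reads in Spib_KO and 8606 in WT, a log2 ratio of 0.19 (0.15 to 0.24). With the cluster included, all 57 members had 10611 reads in Spib_KO and 13014 in WT, a log2 ratio of -0.23 (-0.26 to -0.19), so that the direction of the sum over all members turned with the presence of that 1 cluster.

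On chromosome 4, transcripts of the cluster at chr4:145670697-147849126 were higher in the Spib_KO library by somewhat less than 2-fold. Its 12 members had 760 reads (44.3 CPM) in Spib_KO and 430 reads (23.9 CPM) in WT, a summed log2 ratio of 0.89 (0.72 to 1.06). Zfp984, with 11 zinc fingers, carried more than any other member of it, with 407 reads (23.7 CPM) in Spib_KO and 213 reads (11.8 CPM) in WT. Its log2 ratio was 1.0 (0.76 to 1.25). Zfp992 had 135 reads in Spib_KO and 53 in WT, a log2 ratio of 1.41 (0.95 to 1.90), and the nearly identical Zfp991 had 137 reads in Spib_KO and 101 in WT. Their coding sequences differ at 8 of 1719 bases, and their summed log2 ratio was 0.89 (0.60 to 1.18), with 272 reads in Spib_KO and 154 in WT. Zfp933, which shares no 100-base stretch with another gene, had 65 reads in Spib_KO and 27 in WT, a log2 ratio of 1.32 (0.67 to 2.04), and was not measured.

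The remaining members on chromosome 4 were barely present. Zfp978, Zfp980, Zfp981 and Zfp987 had no reads in the Spib_KO library and at most 9 reads in the WT library. Zfp979, Zfp982, Zfp985 and Zfp993 had 2 to 6 reads in Spib_KO and 1 to 14 reads in WT. None was measured. The interval of the log2 ratio included 0 for 6 of these 8, and its upper bound was -0.91 for Zfp987 and -0.31 for Zfp982. A count of 0 allows up to 0.175 CPM in the Spib_KO library.

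On chromosome 17, the 10 members between chr17:21565816-22867309 differed little. They had 2805 reads (163 CPM) in Spib_KO and 2683 reads (149 CPM) in WT, a summed log2 ratio of 0.13 (0.06 to 0.21). Zfp948, with 15 zinc fingers, was the most abundant of them. It had 999 reads (58.2 CPM) in Spib_KO and 787 reads (43.7 CPM) in WT, a log2 ratio of 0.41 (0.28 to 0.55). Zfp944 had 344 reads in Spib_KO and 320 in WT, a log2 ratio of 0.17 (-0.05 to 0.40). The log2 ratios of the other 8 members ranged from -0.77 for Zfp947, which was not measured, to 0.42 for Zfp943. This cluster made up 26.4% (25.6 to 27.3) of all member reads in Spib_KO and 20.6% (19.9 to 21.3) in WT.

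**Figure D3:**
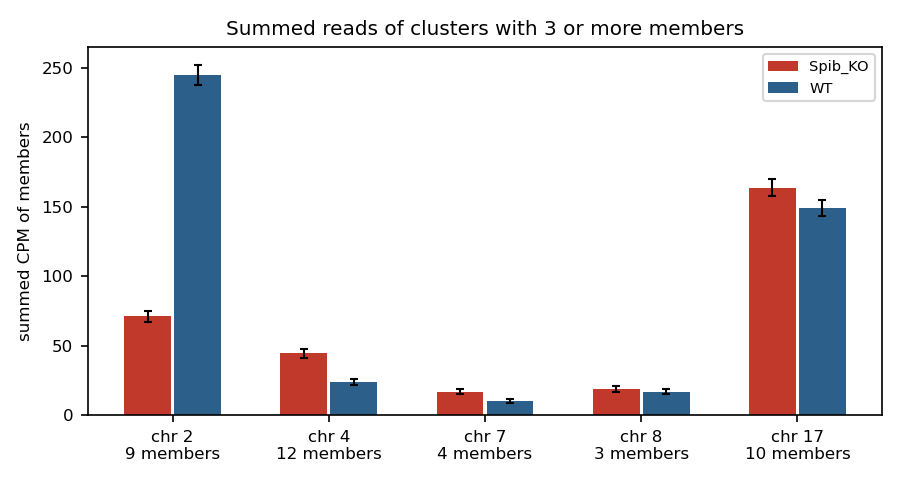
Summed normalised read count (CPM) of the 5 clusters with 3 or more members, Spib_KO in red and WT in blue, with 95% Poisson intervals. The chromosome 2 cluster had 71.1 CPM in Spib_KO and 245 CPM in WT, the chromosome 4 cluster 44.3 CPM in Spib_KO and 23.9 CPM in WT, and the chromosome 17 cluster 163 CPM in Spib_KO and 149 CPM in WT.

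Smaller groups on chromosomes 7 and 8 were near or above the WT level. On chromosome 7, Zfp977, Zfp976, Zfp975 and Zfp936 (chr7:42579397-43192109) had 287 reads in Spib_KO and 182 in WT, a summed log2 ratio of 0.72 (0.45 to 1.0). Zfp976, with 18 zinc fingers, supplied most of these, 197 reads in Spib_KO and 115 in WT. Zfp975 had 72 reads in Spib_KO and 63 in WT, Zfp977 had 15 in Spib_KO and 4 in WT, and Zfp936 had 3 in Spib_KO and 0 in WT. On chromosome 8, Zfp930, Zfp964 and Zfp963 had 316 reads in Spib_KO and 304 in WT, and their log2 ratios were -0.42, 0.74 and 0.76.

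Among measured members that stand alone, Zfp952 and Zfp960 lay furthest from 0. Zfp952 (chr17:32993108-33005457) had 134 reads (7.81 CPM) in Spib_KO and 325 reads (18.1 CPM) in WT. Its log2 ratio of -1.21 (-1.51 to -0.92) misses the call, and only 0.0452% of its 100-base stretches are found in other genes. Zfp960 (chr17:17064103-17089631) had 153 reads (8.92 CPM) in Spib_KO and 60 reads (3.33 CPM) in WT, a log2 ratio of 1.41 (0.98 to 1.87). Zfp960 was the nearest member to a call of higher, and it shares 68.3% of its stretches with Zfp97. On either side of the threshold the bounds nearest 0 were -1.33 for Zfp973 and -1.96 for Zfp970 inside it, and 0.98 for Zfp960 and -0.97 for Zfp971 outside it.

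Of the other members, Zfp934 on chromosome 13 had 48 reads in Spib_KO and 3 in WT, a log2 ratio of 3.86 with a wide interval (2.44 to 6.40), and it was not measured. Zfp953, also on chromosome 13, had 21 reads in Spib_KO and 70 in WT, a log2 ratio of -1.65 (-2.45 to -0.95), and was not measured either. It overlaps Zfp595. The remaining members were Zfp938 (log2 ratio 0.80, 171 reads in Spib_KO and 103 in WT), Zfp959 (0.59), Zfp935 (0.23), Zfp940 (-0.04) and Zfp958 (-0.24), all measured and none called, and Zfp951 (0.95) and Zfp974 (0.04), which were not measured. Zfp935 shares 99.4% of its 100-base stretches with other genes. The 21 members that were not measured had at most 72 reads in Spib_KO and 70 in WT, and they are described by their counts only. Members named here outside the rule for naming genes, such as Zfp952, Zfp934 and Zfp953, were chosen after their values were seen.

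Per transcript length, 7 members averaged 10 TPM or more over both libraries, 33 averaged 1 to 10 TPM, and 17 averaged less than 1 TPM. Among the 7, the deposited TPM was 27.4 in Spib_KO and 35.0 in WT for Zfp950 and 28.4 in Spib_KO and 21.4 in WT for Zfp948. It was 19.7 in Spib_KO and 15.1 in WT for Zfp961, 16.8 in Spib_KO and 10 in WT for Zfp954, and 11.6 in Spib_KO and 9.41 in WT for Zfp956. Of these 5, only Zfp950 had the lower TPM in Spib_KO. Zfp970 and Zfp971 are the other members of this group, and Zfp971 had 9.85 TPM in Spib_KO and 27.9 TPM in WT. By TPM, Zfp970 thus had the highest level of all members in the WT library, while in the Spib_KO library it stood below Zfp948, Zfp950, Zfp961, Zfp954 and Zfp956. By CPM it stood below only Zfp950 and Zfp948 in the Spib_KO library, with 39.2 CPM against 38.3 CPM for Zfp961.

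Apart from Zfp984 on chromosome 4, the abundant members outside the chromosome 2 cluster differed less than 2-fold. Zfp961 had 657 reads (38.3 CPM) in Spib_KO and 523 reads (29.1 CPM) in WT, a log2 ratio of 0.40 (0.23 to 0.57). Zfp954 had 422 reads in Spib_KO and 259 in WT, a log2 ratio of 0.77 (0.55 to 1.0), and shares no 100-base stretch with another gene. Zfp956, which lacks the KRAB pattern and overlaps Zfp783, had 405 reads in Spib_KO and 341 in WT, a log2 ratio of 0.32 (0.11 to 0.53). All 3 had more reads in the Spib_KO library. Zfp932, known in mouse embryonic stem cells as a repressor of a family of endogenous retroviruses, had 302 reads (17.6 CPM) in Spib_KO and 439 reads (24.4 CPM) in WT, a log2 ratio of -0.47 (-0.69 to -0.26). Zfp937 on chromosome 2, far from the cluster, had a log2 ratio of -0.19 (-0.40 to 0.02), and Zfp949 one of -0.24 (-0.48 to -0.01). None of these was called.

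Zfp950, on chromosome 19, had the most reads of any member in the Spib_KO library and changed direction with the unit. It had 1338 reads (78.0 CPM) in Spib_KO and 1281 reads (71.2 CPM) in WT, a log2 ratio of 0.13 (0.02 to 0.24), but the log2 ratio of its TPM was -0.35. The transcript length implied by the authors' counts and FPKM was longer in Spib_KO by 0.48 on the log2 scale. Such a change of over 0.25 was found for 4 of 34 measured members with an FPKM of at least 1, which is 11.8%, against 2.25% of all such genes. The other 3 were Zfp966, Zfp971 and Zfp939. Zfp939 had a log2 ratio of 0.83 in reads and 1.18 in TPM, 3.93 TPM in Spib_KO and 1.73 TPM in WT.

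**Figure D4:**
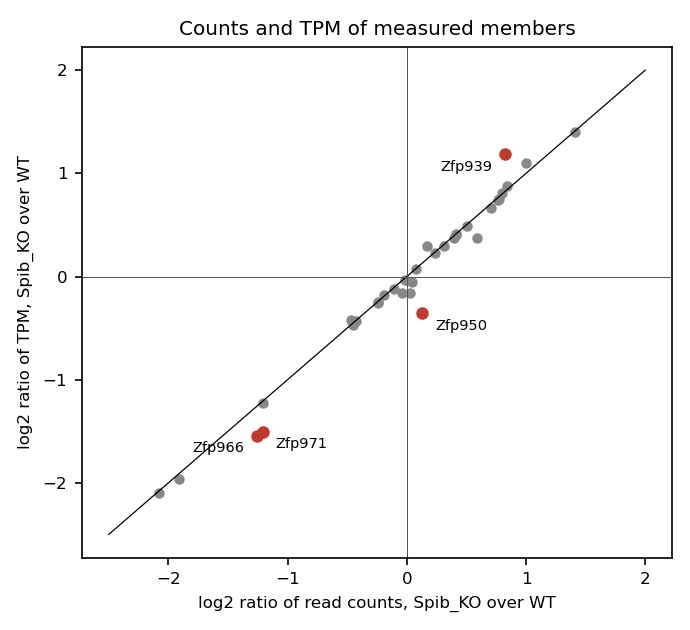
Log2 ratio of TPM against log2 ratio of read counts, Spib_KO over WT, for the 34 measured members with an FPKM of at least 1, with a line at equal values. Red points mark the 4 members whose implied transcript length differs by over 0.25 on the log2 scale, and Zfp950 is above 0 in reads (0.13) and below 0 in TPM (-0.35).

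In sequence, the members are alike in plan and unlike in how much they share with other genes. A coding sequence was found for 56 of 57 (all but Zfp939), and a KRAB pattern in 54 of those 56, with Zfp956 and Zfp974 lacking it. The number of zinc fingers found ran from 0 to 21 with a median of 11. The share of 100-base stretches also present in another gene had a median of 73.3% in the chromosome 2 cluster and 2.85% outside it. Among measured members with under 5% of shared stretches, 20 in number, none was called and the log2 ratios ran from -1.21 to 0.83. Among the 16 with more sharing, 3 were called lower, against 2.18% of all measured genes. The median size of the log2 ratio was 0.92 for the 16, against 0.36 for the 20. The 16 hold all measured members of the chromosome 2 cluster, the 3 called ones among them. Outside that cluster no measured member was called, whatever its sharing. Sharing is also seen in the counts themselves: of the members with reads, 64.2% (49.8 to 76.9) had a count that was not whole in the Spib_KO library and 53.6% (39.7 to 67.0) in the WT library, against 20.6% and 20.2% of all genes. In the chromosome 2 cluster it was 8 of 9 in both libraries. Joined by sequence in place of position, at 80% identity of the translated coding sequences, 8 members of that cluster (all but Zfp972) formed a group with 1128 reads in Spib_KO and 4349 in WT, a log2 ratio of -1.88 (-1.97 to -1.78). At 70% identity the group grew to 13 members, and its log2 ratio of -0.92 was no longer called. The group of Zfp984, Zfp985, Zfp987, Zfp991, Zfp992 and Zfp993 had 690 reads in Spib_KO and 379 in WT, a log2 ratio of 0.93 (0.75 to 1.12). How far the division of reads enters the ratios of single genes in that cluster was not tested.

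**Figure D5:**
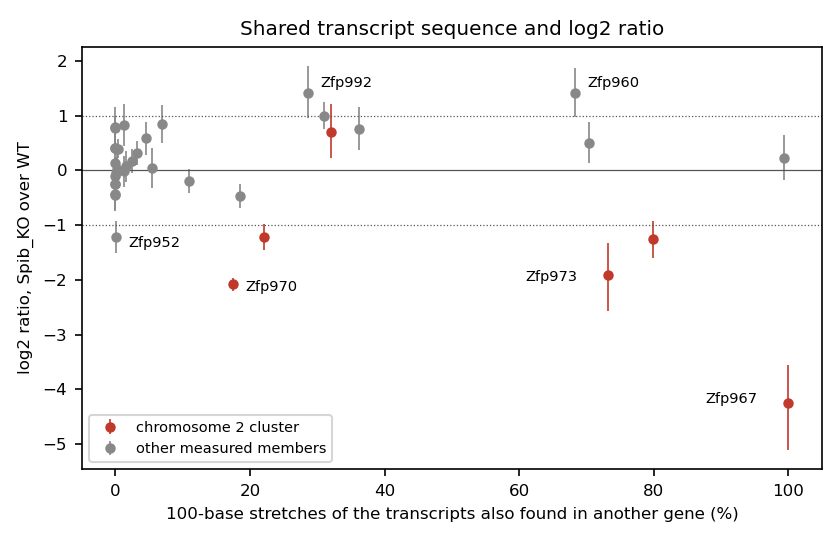
Log2 ratio of read counts, Spib_KO over WT, with 95% counting interval, against the percentage of a gene's 100-base transcript stretches that occur in another gene, for the 36 measured members. The chromosome 2 cluster is in red, and Zfp970 combines a log2 ratio of -2.08 with 17.4% of shared stretches, while Zfp967 is at 100%.

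The upstream sequences were searched for GGAAGT, which holds the core bound by ETS factors, and for the longer GAGGAAGT, which contains it, on both strands and over the 250 bases before the RefSeq start. Of the 57 members, 51 had such a sequence. GGAAGT was found upstream of 19 of these 51 genes, or 37.3%, against 24.7% of the genes of the count table with an upstream sequence and 22.2% of all genes in RefSeq. GAGGAAGT was found upstream of 5 of 51, or 9.80%, against 2.79% of all genes, and all 5 (Zfp979, Zfp980, Zfp982, Zfp985 and Zfp987) lie in the chromosome 4 cluster and had 0 to 14 reads in a library. Neither run of letters occurred upstream of any of the 9 members of the chromosome 2 cluster. Apart from Zfp972, the upstream sequences of that cluster are near copies, 94.8% to 100% identical to that of Zfp970. These genes are therefore not separate observations. How alike the upstream sequences of the chromosome 4 cluster are was not computed, and the shares above count each gene once.

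Other mouse genes with a Zfp symbol (Zfp1 to Zfp899) served as the most similar set. The table holds 294 of them, and 200 were measured. Of these, 9 were called higher (4.5%) and 3 lower (1.5%), with a median log2 ratio of 0.03. The median of the 36 measured members of Zfp900 to Zfp999 was 0.10, and that of the 6 measured members of the chromosome 2 cluster, described here because they were low, was -1.59. No test of the difference between the sets is possible with 1 library per genotype.

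Of the genes of the silencing machinery with which KRAB zinc finger proteins work, none was called in either direction. At the shares called among all genes, 2.33% higher and 2.18% lower, few calls would fall in lists of this size. Of 22 genes listed for the KAP1 complex, 21 were measured and none was called, with a median log2 ratio of 0.17. Trim28 had 56.7 CPM in Spib_KO and 56.7 CPM in WT, a log2 ratio of 0.00 (-0.13 to 0.13), and Setdb1 had 26.5 CPM in Spib_KO and 31.3 CPM in WT, a log2 ratio of -0.24 (-0.42 to -0.06). The 4 most abundant of the list, Hdac1 (0.10), Cbx3 (0.36), Rbbp7 (0.01) and Atf7ip (0.27), had log2 ratios near 0, and the lowest of the list was that of Rbbp4, -0.53 (-0.64 to -0.43). The HUSH and MORC list, whose genes act in other silencing of repeated sequences, had 10 measured genes, none called and a median of -0.20, with Atrx at -0.36, Morc3 at -0.31, Smchd1 at -0.54 and Morc2a at 0.08, and with Resf1 furthest above 0 at 0.63 (0.46 to 0.79). The list of histone H3K9 and DNA methylation genes had 14 measured genes, none called and a median of 0.10, with Ehmt2 at 0.14, Uhrf1 at 0.41, Ehmt1 at -0.29 and Dnmt3a at 0.05. In that list Suv39h1, a histone H3K9 methyltransferase gene, was at -0.59 (-0.76 to -0.42), and Tet1, which encodes an enzyme that oxidises methylated cytosine, was lowest at -1.21 (-1.70 to -0.75), with 55 reads in Spib_KO and 134 in WT. Of 11 KRAB zinc finger genes with known targets, 7 were measured and none was called, with a median of -0.27. Their most abundant genes were Zfp369 at -0.52, Zfp445, known to maintain genomic imprints, at 0.09 and Zfp110 at -0.05.

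Several lists of markers of other cells held genes that were called lower in the Spib_KO library. Called lower were 7 of 8 measured Paneth cell markers (summed 978 CPM in Spib_KO and 2486 CPM in WT), 4 of 8 of goblet cells (1394 CPM in Spib_KO and 2255 CPM in WT) and 5 of 8 of enteroendocrine cells (574 CPM in Spib_KO and 540 CPM in WT, most of it Sct). Called lower too were 4 of 5 measured markers of T cells and intraepithelial lymphocytes and 1 of 3 of myeloid cells (21.4 CPM in Spib_KO and 30.8 CPM in WT). The genes called lower were Lyz1, Defa24, Defa17, Itln1, Mmp7, Habp2 and Mptx2, Ccl6, Zg16, Muc2 and Fcgbp, Cck, Sst, Chga, Gcg and Tph1, Gzma, Itgae, Cd7 and Ccl5, and Lyz2. With the filter set on the mean of both libraries, Habp2, Tph1, Itgae, Cd7 and Lyz2 fell below the minimum and were not called. The enteroendocrine hormone gene Gip was called higher. Over all measured genes, 2.18% were called lower and 2.33% higher. Others of these lists had log2 ratios above 0 without a call, namely Lck (0.82), Adgre1 (0.83), Ang4 (0.75), Clca1 (0.68) and Sct (0.40). At low counts, Cd2 had 11 reads in Spib_KO and 2 in WT, Cd8b1 had 15 in Spib_KO and 3 in WT, and Pax5 had 37 in Spib_KO and 8 in WT. No B cell marker was measured (4.55 CPM in Spib_KO and 6.28 CPM in WT). No marker of enterocytes or of stem cells and progenitors was called. The enterocyte list summed to 18174 CPM in Spib_KO and 16268 CPM in WT. Fabp1 alone had 10611 CPM in Spib_KO and 6968 CPM in WT. The list of stem cells and progenitors summed to 1102 CPM in Spib_KO and 1313 CPM in WT. At 0 reads in Spib_KO were Cd3d, Cd79a, Csf1r, Tyrobp, Gcg and Tph1, each with at least 5 reads in WT, and Cd4 and Pyy, each with 1 read in WT. The part of these cells in the reads of Zfp970 and its neighbours was not tested, and in such bulk samples fewer cells of a type and less RNA per cell cannot be told apart.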

How the data were processed

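Per the file headers, the authors deposited an estimated read count, a TPM and an FPKM for each of 17134 genes in 1 Spib_KO and 1 WT library. Per the submitters' processing notes, HISAT, Bowtie2 2.2.3 and build mm10 were used. Neither the counting program nor the annotation it used is given in the sources used here. TRIzol RNA, cDNA amplified by a SMART-seq type method and transposase-made libraries were used, per the labels' protocols. Such libraries keep no strand and no molecular identifier is mentioned, so overlapping genes share their reads.

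The deposited expected counts divide reads between similar genes and were rounded to whole numbers. Library sizes (17228665 reads in Spib_KO and 17925421 in WT) were scaled by TMM with edgeR 4.0.16 in R 4.3.3, giving CPM. A prior count of 0.5 was used in the log2 ratio (Spib_KO over WT), which has an exact conditional binomial 95% interval (Clopper-Pearson). Single CPM values have exact Poisson intervals. Amplified reads are not independent molecules, so intervals and floors (3 counts) cover counting error only. With 1 library per genotype no p-value is given. Genes were measured and called by the size rule stated in the results. TPM and FPKM as deposited served for levels per length and as alternatives, as log2(value + 1), which understates changes of low genes. The transcript length implied in a library was computed from the deposited counts and FPKM.

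Clusters joined members at most 2 Mb apart. Gene positions come from RefSeq (GRCm38.p6), where 17083 of the 17134 genes had a position. Coding sequences, shared stretches and zinc finger and KRAB patterns come from GENCODE M21 transcripts, read with Biopython 1.88, and protein identities from translating them. Upstream sequences are RefSeq's. Values were computed in Python 3.11.15 (scipy 1.17.1, pandas 2.3.3, numpy 2.4.6) and drawn with matplotlib 3.10.9. DESeq2 1.42.0 gave alternative size factors.

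Genes named were members called, the 12 members with the highest mean CPM, those nearest the threshold, members of sequence groups with a measured member, Zfp967, Zfp970 and Zfp932, Spib, Epcam and Siglecf, called and the 4 most abundant genes of each partner list, and called cell type markers. The members and the lists were chosen with earlier results of these data known. The procedure was tested on simulated data for the comparison of Spib_KO with WT over 17113 genes. With counting error alone the share called was 83.5% at 2.5-fold and 100% at 4-fold, out of 200 altered genes at each size, and 0 unaltered genes were called.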

Additional observations from a re-analysis of the deposited data

How the results depend on the processing

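Scaling by DESeq2 size factors, by total counts or by the upper quartile, a prior count of 5, and thinning the deeper library kept the same 3 members called lower and none called higher. Zfp967 and Zfp970 were called lower with the filter on the mean of both libraries. Called higher among the members were 1 (Zfp934) with no filter, 1 (Zfp960) with counts rounded down, and 3 (Zfp960, Zfp984 and Zfp992) by the point estimate alone. Called lower were 1 (Zfp970) at a CPM minimum of 20, 1 (Zfp967) with a 4-fold bound, 6 by the point estimate, 6 by the deposited TPM, 5 by the deposited FPKM, 0 among members with whole counts and 0 without the chromosome 2 cluster, an alternative added after seeing the data. Fewer genes entered these last 2. The median log2 ratio of members was -0.07 by TPM and -0.16 by FPKM. At 70% identity the group of Zfp970 held 13 members and its summed log2 ratio was -0.92. Of 195 values of the 15 named members, 184 kept their call, 5 lost it, 6 gained one and 0 turned round among called values.

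Over all genes, calls higher and lower were 595 and 716 with no filter, 101 and 106 at a CPM of 20, 425 and 419 by the point estimate and 65 and 88 with a 4-fold bound, and 165 were higher by FPKM. For Zfp1 to Zfp899 they were 20 and 5 with no filter, 0 and 1 at a CPM of 20 and 2 and 1 with a 4-fold bound, with 9 lower by the point estimate, and 4 higher with the filter on the mean, by TPM and by FPKM. The cause of these differences was not tested. No paired analysis was possible because there is 1 library per genotype, and no library could be left out. The depth left 21 of 57 members with too few reads to be measured.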
